A study of Mus musculus with 4 samples.

Results

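A set of 10 genes for transcription factors of mesenchyme and of the epithelial-to-mesenchymal transition (EMT) were followed in mouse embryonic fibroblasts (MEF cells) that were wild-type (wt) or lacked DNA topoisomerase 2β (Top2β-null). The members are a list of names drawn up with earlier results of these data known, and the rule itself uses no measured value: Twist1, Twist2, Prrx1, Prrx2, Snai1, Snai2, Zeb1, Zeb2, Tcf21 and Osr1. All 10 are in the deposited table, which holds 54842 genes, and all 4 libraries were used. There were 2 libraries of wt MEF cells and 2 libraries of Top2β-null MEF cells, all of untreated cells. Total RNA was sequenced after removal of ribosomal RNA, and the deposited values are read counts per gene. Both genotypes are cultured cells, and the Top2β-null MEF cells were obtained from other laboratories than the wt MEF cells, so the origin of the cells and the loss of Top2β cannot be told apart in any comparison given here. The number of embryos, the passage and the part of the gene that was deleted are not given in the sources used here. Nothing says whether replicates came from separate cultures, so p-values measure the spread between these libraries, which may be technical.

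Library totals ran from 133116830 to 149647278 counts over genes and repeat families. Top2b itself had 18259 and 18465 normalized counts (counts scaled to a common library size) in wt, and 3879 and 3789 in Top2β-null cells. The Top2β-null level was 0.209 of the wt level, so the libraries differed in the direction of their labels, with reads left over the gene. As a check of the cell type, 10 fibroblast markers summed to between 883735 and 898987 normalized counts in wt and between 555221 and 560372 in Top2β-null cells, and 9 of the 10 had a mean over 10 in either genotype, Lum being the exception. The lower sum rests on Col1a1 (287593 and 298044 against 112305 and 112511) and Vim (364752 and 367618 against 203170 and 206247), while Dcn, Thy1, Pdgfra and Pdgfrb were higher in Top2β-null cells (Pdgfrb 2936 and 3000 against 10857 and 10980). Markers of other cell types moved with genotype too. Neural markers (6 genes) summed to 2101 to 2113 in wt and 5075 to 5388 in Top2β-null cells, most of it Tubb3 (2022 and 2007 in wt, 4322 and 4598 in Top2β-null libraries). Sox2 was at 0 in wt and at 677 and 730 in Top2β-null libraries, while Sox10 (39.4 and 37.7 in wt, 12.4 and 9.90 in Top2β-null libraries) and Gfap (22.2 and 27.1, then 14.5 and 7.92) were lower there. Mesothelial markers (5 genes) summed to 16095 to 16525 in wt and 1837 to 1897 in Top2β-null cells, of which Msln made up nearly everything, while Wt1 was at 0 in wt and at 60.1 and 47.5 in Top2β-null libraries. The sums of leukocyte markers (6 genes, Tyrobp at 0 in every library) were 2417 to 2496 and 1348 to 1353, where Cd68 was lower in Top2β-null cells (1641 and 1688 against 302 and 289) and Csf1r, Itgam and Fcer1g were higher (Csf1r 740 and 767 against 962 and 978). Epithelial markers (8 genes) summed to 983 to 1037 in wt and 626 to 653 in Top2β-null cells, skeletal muscle markers (5 genes, Myog and Myf5 at 0) to 368 to 382 and 114 to 140.8, and endothelial markers (6 genes) to 164 to 167 and 253 to 259, where Kdr was higher in Top2β-null cells (71.7 and 68.6 against 203 and 205) and Tek lower (43.4 and 34.8 against 9.32 and 3.96). The part of any of these in the results was not tested, and in bulk RNA fewer cells of a type and less RNA per cell cannot be told apart.

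The factors belong to several families. Twist1 and Twist2 are basic helix-loop-helix (bHLH) proteins that bind E-box sequences as dimers with broadly expressed E proteins. Snai1 (SNAIL) and Snai2 (SLUG) are zinc finger repressors, and Zeb1 and Zeb2 are zinc finger and homeodomain repressors. These proteins are best known for silencing E-cadherin and other epithelial genes when epithelial cells turn mesenchymal, and all of them are also used in the embryo, in mesoderm and neural crest. Prrx1 and Prrx2 are paired-related homeobox proteins of limb and craniofacial mesenchyme. Osr1 is a zinc finger protein of intermediate and lateral plate mesoderm, and Tcf21 is a bHLH protein of the mesenchyme around lung, kidney and heart. In fibroblasts such genes serve as a record of mesenchymal identity and of the place in the embryo from which the cells came.

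Transcripts of 9 of the 10 factors were abundant in both genotypes, and Tcf21 was not detected at this depth. Of the 9 that could be tested, Prrx2, Twist2 and Osr1 were higher in Top2β-null cells by the 3 cut-offs used, which were an adjusted p below 0.05, a log2 fold change beyond 1 in either direction and a mean above 100 normalized counts. Over all features tested, 5.27% were called higher and 4.97% lower, and no member was called lower. By the adjusted p alone 8 members were higher and none lower, where 32.5% of all features were higher and 32.5% lower. The median log2 fold change of the 9 members was 0.88, against -0.0058 over the 25085 genes tested. Each member tested had a mean above 100, and among the 16656 genes with such a mean the median was -0.015 and the range from the 5th to the 95th percentile ran from -1.32 to 1.69. Only Prrx2 of the members lay beyond that range.

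**Figure D1:**
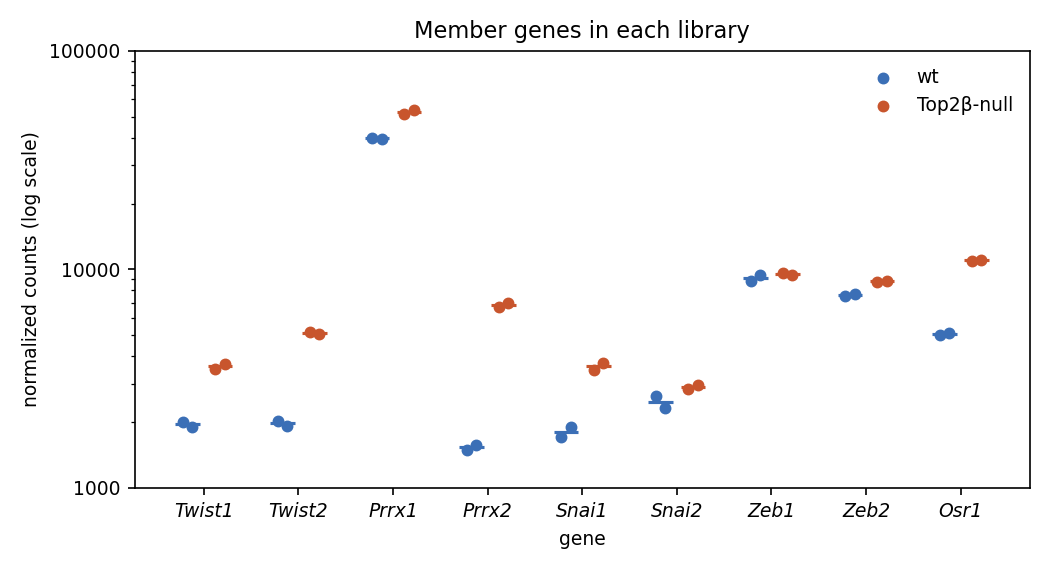
Normalized read counts of the 9 factors with reads in both genotypes, on a logarithmic axis, with 1 point for each library, 2 wt and 2 Top2β-null, and a short bar at the mean of the genotype. The Top2β-null points lie above the wt points for Twist1, Twist2, Prrx1, Prrx2, Snai1, Snai2, Zeb2 and Osr1, and overlap them for Zeb1. The share of all genes whose groups lie apart in this way was not counted.

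**Figure D2:**
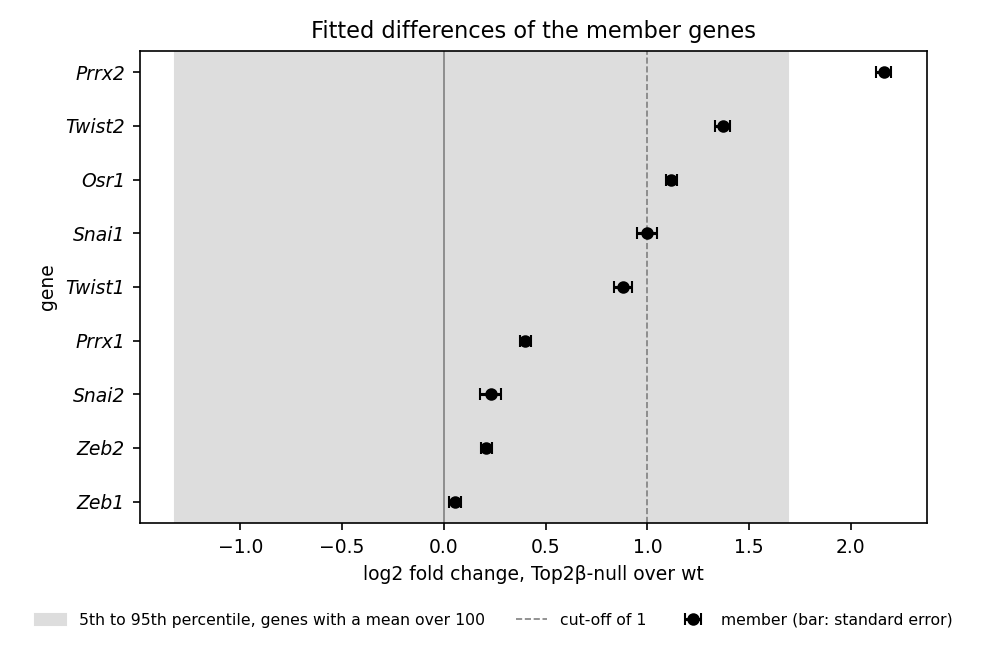
Fitted log2 fold change of Top2β-null over wt for the 9 factors tested, with bars for the standard error of the fit. The dashed line marks the cut-off of 1, and the grey band holds genes with a mean over 100 between their 5th and 95th percentiles, -1.32 to 1.69. Prrx2 at 2.16 lies beyond the band, and Snai1 at 1.00 lies on the line.

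A gene is said to rise or fall where its adjusted p was under 0.05, and to be called where it also passed the cut-offs on fold and mean. Both TWIST genes rose in Top2β-null cells, Twist2 more than Twist1. Twist1 (ENSMUSG00000035799, GRCm38 chr12:33957671-33959829, plus strand) had 2001 and 1906 normalized counts in wt MEF cells, and 3499 and 3684 in Top2β-null cells. Both Top2β-null libraries were above both wt libraries, and the groups were far apart compared with their replicates. The log2 fold change was 0.88 ± 0.044 (SE, adjusted p = 3.21e-11 by the quasi-likelihood test of edgeR, with Benjamini-Hochberg correction over all features), which is under the cut-off of 1, and 9.46% of genes with a mean over 100 had a higher value. Twist2 (Dermo1, a TWIST factor of dermal fibroblasts and their precursors) lies on chr1:91801461-91848028, plus strand. Its counts were 2028 and 1927 in wt and 5140 and 5079 in Top2β-null cells, a log2 fold change of 1.37 ± 0.038 (SE, edgeR's adjusted p = 2.11e-14).

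Twist2 overlaps 2 annotated non-coding genes. Gm29100, on the opposite strand, shares 1477 exon bases with Twist2, and its normalized counts were 1086 and 1050 in wt and 2757 and 2695 in Top2β-null cells. Its log2 fold change, 1.35 ± 0.047 (SE, edgeR's adjusted p = 3.56e-13), was close to that of Twist2. The kit keeps the strand of the RNA, but the strand setting used for counting is not given in the sources used here, so how far the values of this antisense gene and Twist2 rest on the same reads cannot be told apart. Gm29101 lies inside an intron of Twist2 on the same strand, without shared exon bases, and had 318 and 293 normalized counts in wt against 774 and 574 in Top2β-null cells (log2 fold change 1.14 ± 0.12, SE, edgeR's adjusted p = 2.97e-07). Whether its reads come from unspliced Twist2 RNA cannot be told from counts per gene of total RNA. The same limit holds for genes within introns of other members.

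The sequences upstream of the start sites of Twist1, Twist2 and Snai1 are shown because these 3 genes are among the 5 members with the largest log2 fold changes and RefSeq gives each a start with no annotated exon of the gene in the 250 bases before it. A window of Zeb2 meets the second condition and is not shown, since that gene differed by 0.21. The windows shown were chosen after the counts had been seen. That of Twist2 lies within the antisense gene Gm29100 (chr1:91798528-91802937, minus strand). The windows are read 5′ to 3′ on the strand of the gene from GRCm38.p6, chr12:33957421-33957670 for Twist1, chr1:91801211-91801460 for Twist2 and chr2:167537945-167538194 for Snai1, all on the plus strand. Capitals mark every match, on either strand, of 4 motifs: the E-box CANNTG, which bHLH factors bind, its form CAGGTG or CACCTG, which SNAIL and ZEB factors bind, the TATA box as TATAAA, and the CCAAT box.
Twist1: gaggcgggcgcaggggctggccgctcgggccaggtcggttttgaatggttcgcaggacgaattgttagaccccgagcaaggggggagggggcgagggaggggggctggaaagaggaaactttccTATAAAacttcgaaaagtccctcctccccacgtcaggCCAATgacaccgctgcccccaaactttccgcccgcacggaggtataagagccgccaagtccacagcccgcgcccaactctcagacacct
Twist2: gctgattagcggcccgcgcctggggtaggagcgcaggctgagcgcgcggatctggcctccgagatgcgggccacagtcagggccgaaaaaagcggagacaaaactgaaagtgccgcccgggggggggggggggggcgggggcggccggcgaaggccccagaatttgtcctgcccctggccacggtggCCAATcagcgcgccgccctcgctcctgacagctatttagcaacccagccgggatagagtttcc
Snai1: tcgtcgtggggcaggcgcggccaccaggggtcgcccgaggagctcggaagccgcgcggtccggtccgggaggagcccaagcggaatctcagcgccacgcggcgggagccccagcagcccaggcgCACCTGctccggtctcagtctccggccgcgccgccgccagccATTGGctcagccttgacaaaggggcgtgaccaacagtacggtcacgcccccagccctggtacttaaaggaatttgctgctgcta

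The 3 windows each hold 1 CCAAT match, between positions -89 and -85 from the start site in Twist1, -63 and -59 in Twist2 and, on the reverse strand, -84 and -80 in Snai1. Of the 32817 RefSeq windows of this length, 33.8% hold that motif. The TATAAA match lies between -126 and -121 in Twist1, and 12.4% of all windows hold one. Snai1 has the only E-box of these windows, CACCTG between -126 and -121, where 66.2% of all windows hold an E-box of any kind and 17.2% hold CAGGTG or CACCTG. A match says only that these letters stand there, and no binding was measured.

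Prrx1 was the most abundant member in counts and changed little, whereas its paralog Prrx2 rose more than any other member. Prrx1 (chr1:163245119-163313710, minus strand) had 40075 and 39484 normalized counts in wt and 51615 and 53318 in Top2β-null cells. The groups did not overlap, and the log2 fold change was 0.40 ± 0.027 (SE, edgeR's adjusted p = 1.55e-09), under the cut-off of 1. Prrx2 (chr2:30834972-30881251, plus strand) went from 1497 and 1572 normalized counts in wt to 6739 and 6986 in Top2β-null cells. That is a 4.47-fold rise and a log2 fold change of 2.16 ± 0.038 (SE, edgeR's adjusted p = 6.12e-17), and 3.97% of genes with a mean over 100 had a higher one. The 3 non-coding genes that lie within introns of Prrx1, with no shared exon bases, were higher by 0.35 (Gm20471, on the opposite strand), 0.58 (Gm26523) and 0.47 (Gm37644) on the log2 scale, each with an adjusted p below 0.05 and none past the cut-off of 1. As for Gm29101, counts per gene do not show whether these reads come from unspliced Prrx1 RNA.

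Of the SNAIL genes, Snai1 rose by a factor close to the cut-off and Snai2 rose little. Snai1, which silences E-cadherin and is a short-lived protein, lies on chr2:167538195-167542814, plus strand. Its normalized counts were 1709 and 1889 in wt and 3470 and 3720 in Top2β-null cells. Its log2 fold change was 1.00 ± 0.051 (SE, edgeR's adjusted p = 4.62e-11), a value of 0.9983 before rounding and therefore just under the cut-off. In 7 of 10 alternative fits it passed the cut-off, among them those without Top2β-null replicate 1 (1.09) and without wt replicate 2 (1.059), while it came to 0.91 without wt replicate 1. Snai2, known from neural crest and from mesenchymal stem cells, lies on chr16:14705852-14709385, plus strand, and had 2633 and 2308 normalized counts in wt and 2846 and 2945 in Top2β-null cells. The wt libraries were farther apart for this gene than the Top2β-null libraries, and all Top2β-null values were above them. The log2 fold change was 0.23 ± 0.053 (SE, edgeR's adjusted p = 0.00128), and without wt replicate 2 it was 0.12 with an adjusted p of 0.0278.

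The ZEB genes differed little between genotypes, with a small rise for Zeb2 and, in the main fit, none for Zeb1. Zeb1 (chr18:5591860-5775467, plus strand) had 8860 and 9443 normalized counts in wt and 9570 and 9432 in Top2β-null cells. One Top2β-null library was below the higher wt library, and the log2 fold change of 0.054 ± 0.030 (SE, edgeR's adjusted p = 0.132) did not pass the test. Without wt replicate 1 the sign turned, at -0.0059 with an adjusted p of 0.906, and 6 of the 10 alternative fits took the value past the adjusted p, the highest being 0.12 with scaling to the total count. Zeb2 (chr2:44983632-45117395, minus strand), also known as SIP1, had 7538 and 7684 normalized counts in wt and 8769 and 8829 in Top2β-null cells. Its groups did not overlap, and the log2 fold change was 0.21 ± 0.026 (SE, edgeR's adjusted p = 2.44e-06), with 32.2% of genes with a mean over 100 having a higher one. Zeb2os, the antisense gene that shares 653 exon bases with Zeb2, had 93.9 and 101 normalized counts in wt and 77.7 and 101 in Top2β-null cells, which overlapped. The other genes that overlap the ZEB genes were low or did not pass the test, apart from Gm22709, a small RNA gene in an intron of Zeb1 with 21.2 and 10.6 normalized counts in wt and 37.3 and 35.7 in Top2β-null cells (1.20 ± 0.37, SE, log2 scale, edgeR's adjusted p = 0.00934). For Zeb1 these are Gm10125, which shares 198 exon bases with it (0.10, adjusted p = 0.332), and Gm16147 (0.16, adjusted p = 0.307). For Zeb2 they are Mir5129 (0.52, adjusted p = 0.102) and Gm27761 (0.59, adjusted p = 0.237), with Gm27645 and Gm27404 under 10 normalized counts in every library and not tested.

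Osr1 rose 2.17-fold and Tcf21 was not detected. Osr1 (chr12:9570116-9581500, plus strand) had 5020 and 5099 normalized counts in wt and 10948 and 11011 in Top2β-null cells. Replicates lay close together and the groups were far apart, with a log2 fold change of 1.12 ± 0.026 (SE, edgeR's adjusted p = 2.03e-15). Tcf21 (chr10:22817281-22820174, minus strand) had 1 read in wt replicate 1 and 0 reads in the other 3 libraries, and was not tested. A count of 0 allows up to 3 counts, which is between 2.90 and 3.11 normalized counts in these libraries. This limit covers counting error alone, and both genotypes were at or under it, so no fold is given. The genes that overlap Tcf21 and Osr1 on the opposite strand, Gm10824 and 1700022H16Rik, were too low to be tested.

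The microRNAs that are known to repress the ZEB mRNAs, the miR-200 family, were looked up in the same table. Their hairpins had almost no reads: Mir200a, Mir200b, Mir429 and Mir205, which also acts on ZEB mRNAs, had 0 counts in every library. Mir200c had 2 and 2 counts in wt and 4 and 2 in Top2β-null cells, and Mir141 had 1 count in Top2β-null replicate 2 only. Libraries of this kind do not capture mature miRNAs, so these counts speak of the hairpin region alone. The mature sequences (RefSeq, GRCm38.p6) fall into a pair of groups by their seed, bases 2 to 8, shown in capitals, and are printed with the Zeb2 sites that match each seed.
mmu-miR-200a-3p: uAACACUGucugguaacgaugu
mmu-miR-141-3p: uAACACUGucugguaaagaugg
mmu-miR-200b-3p: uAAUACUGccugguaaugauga
mmu-miR-200c-3p: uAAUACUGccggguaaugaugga
mmu-miR-429-3p: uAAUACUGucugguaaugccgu
Zeb2 site for AACACUG: aaaattttgtaCAGTGTTaagg
Zeb2 site for AAUACUG: ctaccatacatCAGTATTttat

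The first of these sites lies 209 to 215 bases and the second 393 to 399 bases after the stop codon of the transcript Zeb2-212, with the bases that pair with the seed in capitals. In the 4941 bases after that stop codon, 4 stretches match the seed AACACUG and 5 match AAUACUG. These matches are a description of the transcript, and no regulation was measured.

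The order of the factors was compared as normalized counts per kb of exon, since counts of genes of different length cannot be compared directly. In wt MEF cells Prrx1 stood first with 3595 ± 37.7 (SD, n = 2) normalized counts per kb, followed by Osr1 with 2449 ± 26.9 (SD, n = 2). Snai2 (1223 ± 114, SD, n = 2) and Twist1 (1200 ± 41.6, SD, n = 2) came next and overlapped. Snai1 (1110 ± 78.8) was below Twist1 in both libraries but overlapped Snai2, at 1054 and 1166 against 1303 and 1142. Below these 3 stood Zeb1 (891 ± 40.2), Prrx2 (782 ± 26.9), Twist2 (623 ± 22.4) and Zeb2 (382 ± 5.18), which did not overlap with each other or with Snai1. In Top2β-null MEF cells Osr1 was first with 5314 ± 21.4 (SD, n = 2) normalized counts per kb, ahead of Prrx1 with 4741 ± 109 and Prrx2 with 3500 ± 89.2. Prrx2 thus moved from the 7th place in wt to the 3rd in Top2β-null cells. Snai1 (2218 ± 109) and Twist1 (2206 ± 80.7) overlapped in the 4th and 5th places, and Twist2 (1610 ± 13.6), Snai2 (1433 ± 34.5), Zeb1 (926 ± 9.49) and Zeb2 (441 ± 2.11) followed. The order depends on the length used. With the longest annotated transcript in place of all exons, Prrx1 was first in both genotypes, at 6095 in wt and 8038 in Top2β-null cells, ahead of Osr1 at 2515 and 5457. Zeb1 then stood 3rd in wt (1578), above Snai2, Twist1 and Snai1, and Twist2 (783) was lowest there, below Zeb2 (834). In Top2β-null cells Zeb1 (1638) then stood above Snai2 (1433).

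**Figure D3:**
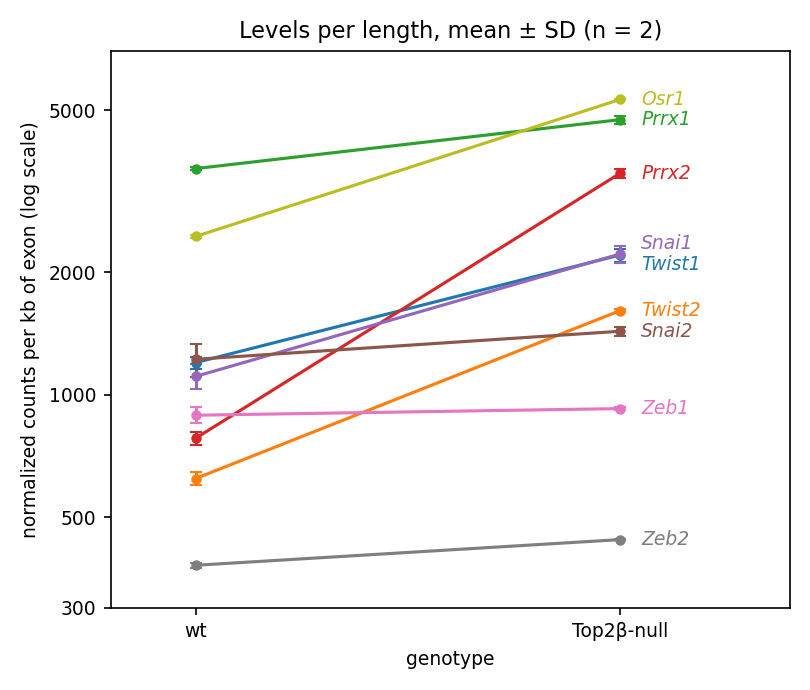
Normalized counts per kb of union exon length of the 9 factors detected, on a logarithmic axis, as the mean of each genotype with bars for the SD (n = 2) and a line joining both genotypes of a gene. Prrx1 and Osr1 are the highest in wt, at 3595 and 2449, and Prrx2 rises from 782 in wt to 3500 in Top2β-null cells, while Zeb2 is the lowest of those detected.

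Within each family the balance between paralogs was not the same in the libraries of both genotypes. It was measured as the log2 ratio of the raw counts of both paralogs within a library, which needs no scaling between libraries. With 2 libraries in each group the 2-sided exact permutation test cannot give a p below 0.33, and each of the 4 ratios gave this smallest value, 0.33 after adjustment too. The differences are therefore given with the spread between replicates.

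For Prrx1 over Prrx2 the log2 ratio was 4.74 and 4.65 in wt, and 2.94 and 2.93 in Top2β-null cells. This is a ratio of raw counts, not corrected for length, of 25.9 in wt and 7.65 in Top2β-null cells. Per kb of exon the mean log2 ratio was 2.20 in wt and 0.44 in Top2β-null cells. The difference of -1.76, which the length does not alter, was 38.4 times the pooled SD. Snai1 over Snai2 gave -0.62 and -0.29 in wt and 0.29 and 0.34 in Top2β-null libraries, below 0 in wt and above it in Top2β-null libraries. These raw counts are not corrected for length, and per kb of exon the mean log2 ratio was -0.14 in wt, where both genes overlapped, and 0.63 in Top2β-null cells. The difference of 0.77 was 4.54 times the pooled SD, since the wt libraries were apart from each other, and it ranged from 0.60 to 0.94 when each library was left out in turn. Twist1 over Twist2 gave -0.019 and -0.016 in wt and -0.56 and -0.46 in Top2β-null libraries, a difference of -0.49. Its mean log2 ratio per kb of exon was 0.95 in wt and 0.45 in Top2β-null cells. The smallest difference, -0.15, was that of Zeb1 over Zeb2, from 0.23 and 0.30 in wt to 0.13 and 0.095 in Top2β-null cells. For this pair the mean per kb of exon was 1.22 in wt and 1.07 in Top2β-null cells. No pair overlapped between genotypes. The share of all gene pairs that do not overlap was not counted, and by edgeR's adjusted p 32.5% of features were higher and 32.5% lower. The longest identical stretch between the annotated transcripts of a pair was 23 bases for the TWIST genes, 19 for the PRRX genes, 23 for the SNAIL genes and 35 for the ZEB genes.

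**Figure D4:**
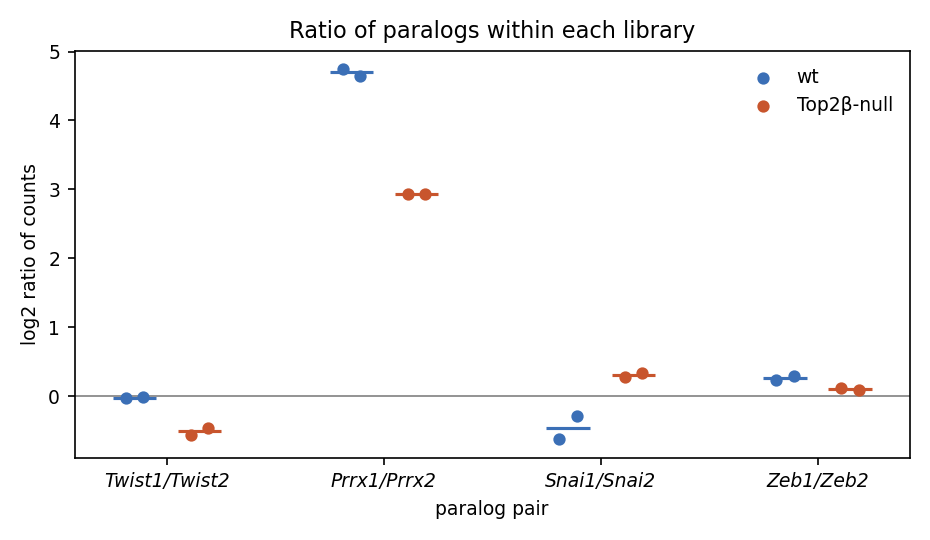
Log2 ratio of raw counts of the paralogs in each library, for the TWIST, PRRX, SNAIL and ZEB pairs, with 1 point for each wt and Top2β-null library and a short bar at the mean of the genotype. The ratios are not corrected for length. The PRRX ratio averages 4.70 in wt and 2.93 in Top2β-null libraries, and the SNAIL ratio lies below 0 in wt and above it in Top2β-null libraries.

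The proteins with which these factors work were taken as lists of genes. The lists were written with earlier results of these data known, so each is described by its counts beside the background of 5.27% called higher and 4.97% called lower. Among bHLH partners and inhibitors, 5 of 7 were called higher and none lower, with a median log2 fold change of 1.20. The Id genes, whose products bind E proteins and keep them from DNA, were all among the 5. Id3 had 5611 and 5261 normalized counts in wt and 19299 and 19884 in Top2β-null cells (1.85 ± 0.031, SE, on the log2 scale). Id4 had 155 and 150 in wt and 875 and 909 in Top2β-null cells (2.55 ± 0.083, SE), and Id1 and Id2 were higher by 1.33 and 1.20. The E proteins, which are the dimer partners of TWIST, were less alike. Tcf4 had 9638 and 9517 normalized counts in wt and 20550 and 19837 in Top2β-null cells (1.08 ± 0.026, SE), whereas Tcf12 and Tcf3 were higher by 0.39 and 0.14. Tcf12 had the highest mean count of the list over all 4 libraries, though not within either genotype.

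Factors of the same families as the members were mostly too low to be tested, with 5 of 13 tested and 6 at or under 3 counts in every library. Shox2, a homeobox gene of the proximal limb, had 197 and 157 normalized counts in wt and 1265 and 1282 in Top2β-null cells (2.85 ± 0.085, SE, log2 scale). Osr2, the paralog of Osr1, had 81.8 and 93.7 in wt and 212 and 223 in Top2β-null cells (1.31 ± 0.15, SE). The tendon factor Scx went the other way, from 2890 and 2877 in wt to 348 and 327 in Top2β-null cells, and its log2 fold change was -3.10 ± 0.057 (SE, edgeR's adjusted p = 1.12e-16).

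All 13 corepressors of SNAIL and ZEB were tested, and 1 was called higher and none lower, beside 5.27% and 4.97% of all features. The gene called was Wtip, a LIM protein of the Ajuba family, with 1824 and 1927 normalized counts in wt and 4262 and 4147 in Top2β-null cells (1.16 ± 0.042, SE, log2 scale). By the adjusted p alone 9 were higher and 3 lower, where 32.5% of all features were higher and 32.5% lower. The median was 0.14, and Smarca4, with the highest mean count over all 4 libraries, differed by 0.096. The enzymes and adaptors of SNAIL protein turnover, 9 genes, had no member called in either direction and a median of 0.050. By edgeR's adjusted p 4 of them were higher and 3 lower, to be read beside the same 32.5% in each direction. The ubiquitin ligase Mycbp2 had the highest mean count over all 4 libraries, though not within Top2β-null cells, with 24680 and 25705 normalized counts in wt and 13246 and 12718 in Top2β-null cells. Its log2 fold change of -0.96 ± 0.029 (SE, edgeR's adjusted p = 4.56e-14) was just short of the cut-off, and passed it without wt replicate 1.

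Epithelial genes, the classical targets of these repressors, ranged from almost no reads to 29282 normalized counts, and 7 of the 18 listed were tested with a mean over 100. Cdh1, which encodes E-cadherin, had 19.2 and 23.2 normalized counts in wt and 7.25 and 8.91 in Top2β-null cells (-1.38 ± 0.43, SE, log2 scale, edgeR's adjusted p = 0.0105), a level under the cut-off on the mean. Of 18 epithelial genes 12 were tested, 2 were called higher and 2 lower. Of these 12, Cdh1, Cldn4 and Krt8 reached 10 counts in both libraries of wt alone and Patj of Top2β-null alone. They thus passed the filter through the genotype in which they were high. The median of this list, drawn as a bar in the plot of the lists, is therefore not read. Lama5, a laminin chain of basement membranes, had the highest mean count over all 4 libraries and fell from 28600 and 29282 in wt to 4356 and 4212 in Top2β-null cells. Cldn7, a tight junction claudin, had 220 and 235 in wt and 41.4 and 66.4 in Top2β-null cells. Patj, a polarity protein of tight junctions that ZEB1 is known to repress, had 7.07 and 10.6 in wt and 2709 and 2722 in Top2β-null cells (8.24 ± 0.11, SE, log2 scale). Muc1, a mucin of apical membranes, had 79.7 and 86.0 in wt and 219 and 195 in Top2β-null cells.

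Regulators of epithelial identity that oppose the EMT factors were 13, of which 7 were tested. Trp63, the p53 homologue of stratified epithelia, had 4.04 and 3.86 normalized counts in wt and 249 and 235 in Top2β-null cells (5.89 ± 0.27, SE, log2 scale). Grhl1 had 263 and 226 in wt and 126 and 98.1 in Top2β-null cells, a log2 fold change of -1.13 ± 0.15 (SE, edgeR's adjusted p = 5.90e-06), and lost its call without Top2β-null replicate 2. Klf5, with the highest mean count over all 4 libraries, had a log2 fold change of -0.57. With either Top2β-null library left out, Trp63 reached 10 counts in 1 library only and was not tested.

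**Figure D5:**
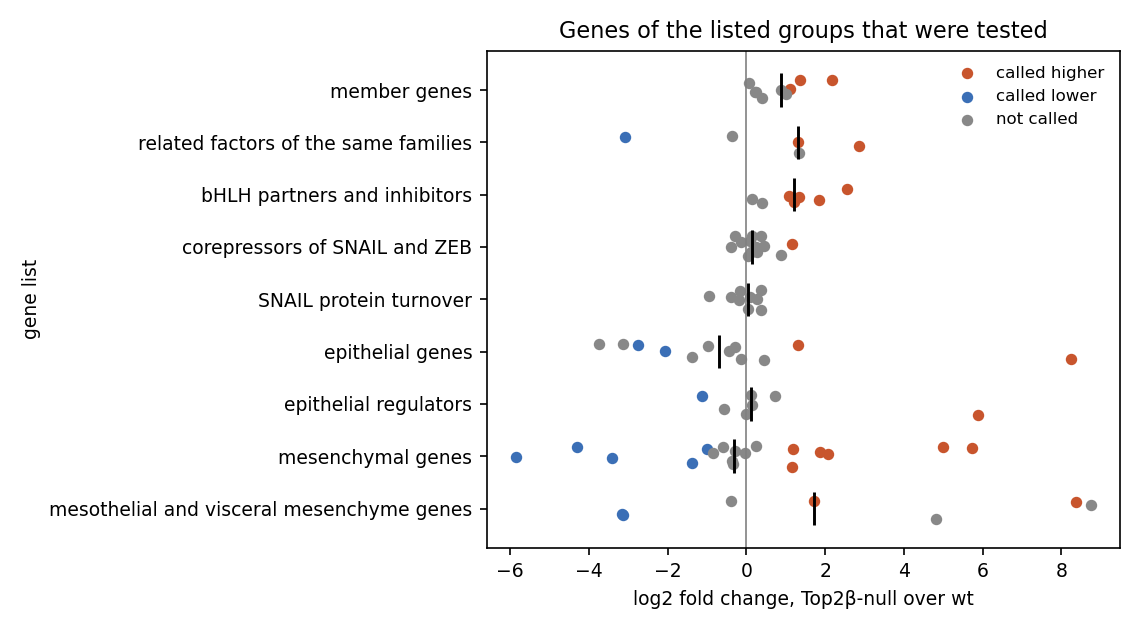
Fitted log2 fold change of Top2β-null over wt for each tested gene of the members and of the 8 lists, with 1 point per gene, coloured by its call, and a vertical bar at the median of the list. The bHLH partners and inhibitors all lie above 0, while the mesenchymal genes are spread from -5.86 to 5.73. Wt1 and Nkx2-3 in the bottom row and Cldn4 among the epithelial genes are at or under 3 counts in 1 genotype, so their plotted values depend on the fit. The bars of these rows, of the epithelial regulators (Trp63) and of the related factors (Snai3) include genes that passed the filter through 1 genotype alone. These bars are not read in the text.

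Genes of the mesenchymal state, which the members are known to favour, did not move in 1 direction. Of 20 genes 18 were tested, 6 were called higher and 5 lower, and the median was -0.31. Cdh11, the cadherin of mesenchymal cells, had 224 and 231 normalized counts in wt and 11826 and 12283 in Top2β-null cells (5.73 ± 0.045, SE, log2 scale). Dcn, a small proteoglycan, had 226 and 223 in wt and 7053 and 7239 in Top2β-null cells, and the surface glycoprotein Thy1 rose from 4236 and 4367 to 17784 and 18440. The contractile genes fell. Acta2, smooth muscle actin, had 104063 and 106902 in wt and 5256 and 5431 in Top2β-null cells (-4.30 ± 0.032, SE), and Tagln had 8123 and 7982 in wt and 731 and 782 in Top2β-null cells. Postn, a matrix protein, went from 2573 and 2563 to 41.4 and 46.6. Fn1, with the highest mean count over all 4 libraries, differed by -0.36, with 428501 and 437231 in wt and 338101 and 337858 in Top2β-null cells.

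Mesothelial and visceral mesenchyme genes, in whose tissues Tcf21 and Osr1 are used, were divided. Of 12 genes 7 were tested, 2 were called higher and 2 lower. Gata4 had 6.06 and 2.90 normalized counts in wt and 1498 and 1523 in Top2β-null cells, while Gata6, its paralog, had 1418 and 1294 in wt and 151 and 157 in Top2β-null cells. Foxf1, a factor of splanchnic mesoderm, had 664 and 593 in wt and 1967 and 2191 in Top2β-null cells. Msln, the mesothelial surface protein, had the highest mean count over all 4 libraries, though not within Top2β-null cells, and fell from 16088 and 16514 to 1774 and 1843. Wt1 had no reads in wt and 60.1 and 47.5 in Top2β-null cells, at least 15.7-fold higher when the wt libraries are set to 3 counts each, a level under the cut-off on the mean. With either Top2β-null library left out, Gata4 reached 10 counts in 1 library only and was not tested. Gata4, Wt1 and Nkx2-3 passed the filter on low counts through the Top2β-null libraries alone, where they were high. The median of this list, drawn as a bar in the plot of the lists, is therefore not read.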

How the data were processed

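Ribosomal RNA was removed and 4 libraries of total RNA were sequenced. The authors used Trim Galore! for trimming, STAR for alignment to mm10 and TEtranscripts to count reads on Gencode genes and on repeat families from RepeatMasker. The table deposited by the authors holds raw counts. How reads with several alignments were shared, and the strand setting, are not given in the sources used here. Symbols, positions on GRCm38 and lengths came from GENCODE M21, matched to 54409 of the 54842 gene identifiers.

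The members and gene lists were chosen with earlier results of these data known. The 26566 features that reached 10 counts in 2 or more libraries were fitted in R 4.3.3 with edgeR 4.0.16 (TMM factors over genes and repeats, quasi-likelihood test, genotype as the only term, Benjamini-Hochberg adjustment over all features). To obtain the SE, the size of the log2 fold change was divided by the root of the F statistic. Named genes are the members, Top2b, genes overlapping a member, and from each list up to 3 called genes per direction with the largest change whose groups do not overlap, plus the gene with the highest mean count over all libraries. Other list genes, the hairpins and flanking genes were named after their values were seen. Between replicates, chi-square over its degrees of freedom was 3.65 (wt) and 5.07 (Top2β-null), above counting noise. Alternatives were DESeq2 1.42.0, other scalings, filters and cut-offs, a replicate block, other lengths, and leaving out each library.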

Additional observations from a re-analysis of the deposited data

How the results depend on the processing

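Of 90 member values refitted under 10 alternatives, 83 kept their direction and side of the adjusted p, 6 passed it newly (all Zeb1) and 1 reversed (Zeb1 without wt replicate 1, -0.0059); the cause was not tested. Members called higher were 3, and 4 with DESeq2 (Snai1 added). By the adjusted p alone 8 were higher, where 32.5% of all features were higher. None was called lower in any of these fits. Over the 8 lists 78 genes were tested. Among them, Snai3, Trp63, Gata4, Wt1 and Nkx2-3 reached 10 counts in Top2β-null libraries alone, and Cdh1, Cldn4 and Krt8 in wt libraries alone. Patj reached 10 counts in both Top2β-null libraries and in wt replicate 2. Of the 78, 19 were called higher and 11 lower (over all features 5.27% and 4.97%). By the adjusted p alone 40 were higher and 29 lower, where 32.5% of all features were higher and 32.5% lower. With at least 100 counts in every library, where fewer genes are tested, those called higher and lower were 14 and 8. When each library was left out in turn, the log2 fold changes ranged from 0.83 to 0.95 for Twist1, 1.32 to 1.4003 for Twist2, 0.37 to 0.46 for Prrx1, 2.11 to 2.23 for Prrx2, 0.91 to 1.09 for Snai1, 0.12 to 0.31 for Snai2, -0.0059 to 0.086 for Zeb1, 0.18 to 0.25 for Zeb2 and 1.09 to 1.16 for Osr1. The paralog differences ranged from -0.54 to -0.45 (TWIST), -1.81 to -1.72 (PRRX), 0.60 to 0.94 (SNAIL) and -0.19 to -0.12 (ZEB). Where this left 1 library of a genotype, that library was assumed to vary like the other group. With the replicate number as a replicate block, members called higher stayed at 3 and Prrx2 was at 2.16; the deviations of libraries with the same number correlated at 0.020 over 17952 features, so nothing shows that the numbers pair the libraries, and the block moved no member across a cut-off. Other scalings shifted the median log2 fold change of genes by 0.0078 to 0.070. At this depth Tcf21, and epithelial genes with under 10 counts, could not be compared.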

Other observations

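The nearest protein-coding genes on each side of the 10 members, 20 genes, were looked at after the members' values had been seen. Of the 17 tested, 2 were called higher and none lower (over all features 5.27% were called higher and 4.97% lower). Efcab1, next to Snai2, was tested through the Top2β-null libraries alone and is not among the 2. Ptges, a prostaglandin E synthase whose gene lies 8.22 kb from Prrx2, had 15.1 and 10.6 normalized counts in wt and 1657 and 1679 in Top2β-null cells (log2 fold change 7.01 ± 0.12, SE, edgeR's adjusted p = 2.90e-17). Asb6, 4.64 kb away on the other side of Prrx2, had 5114 and 5322 in wt and 4210 and 4411 in Top2β-null MEF cells. Hdac9, a histone deacetylase gene 87.8 kb from Twist1, had 40.4 and 42.5 in wt and 277 and 265 in Top2β-null MEF cells (log2 fold change 2.70 ± 0.16, SE, edgeR's adjusted p = 2.94e-10). Hdac4, 80.8 kb from Twist2, was higher by 0.33 on the log2 scale and was not called, and Asb1 on the other side differed by 0.056. The neighbours of Snai1, Rnf114 and Ube2v1, were at -0.13 and -0.47, and those of Osr1, Ttc32 and Nt5c1b, at -0.13 and 0.73 with adjusted p above the threshold (0.313 and 0.0607).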
